A study of Mus musculus with 2 samples.

Results

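The transcripts of 10 genes of the Notch pathway were followed through the cells of aged mouse bone and marrow. They were chosen by name, as the receptors Notch1, Notch2, Notch3 and Notch4, the ligands Jag1, Dll1 and Dll4, and the targets Hes1, Hey1 and Heyl, out of 32285 genes in the count table. The sample held Lin-CD45- cells of the hind limb bones (femur and tibia) of 3 untreated male INK-ATTAC mice of 24 months, so there was 1 group and no young, treated or other genotype to set beside it. INK-ATTAC mice carry a transgene in which a part of the p16 promoter drives a caspase that a drug can switch on. Cells of the 3 mice were pooled, and the counts were deposited as 2 replicates, rep1 and rep2. Of the 11056 barcodes 10928 were in both, with near identical totals, so rep1 and rep2 were taken to hold the same cells, and their counts were summed per barcode. The counts are of UMIs, molecular tags that mark captured transcripts. The squared difference between rep1 and rep2 was 0.559 of the summed counts, where independent counts would give 1, so a transcript can be counted in both and the UMI numbers below are not numbers of transcripts. Intervals are therefore based on the mean of rep1 and rep2. With 1 pooled sample no difference between animals could be measured, no test was run, and every interval below is a 95% interval for counting error only.

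Notch signaling passes between neighboring cells. A ligand of the Jagged or Delta-like family on 1 cell binds a Notch receptor on the next, proteases then cut the receptor, and its freed intracellular part enters the nucleus, where it joins the DNA-binding protein RBPJ and switches on targets such as the Hes and Hey genes, which encode repressors. In the skeleton, Notch signaling is known for holding back the differentiation of stromal progenitors and for its part in the growth of bone vessels, and Notch3 is best known from pericytes and smooth muscle cells.

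Of the 11056 barcodes, 9573 had at least 200 genes and at most 20% mitochondrial UMIs, and all but 954 of them fell into 5 cell classes. LEPR stromal cells, the perivascular stromal cells of the marrow, had at least 1 Lepr UMI and at least 5000 Cxcl12 counts per 1000000 UMIs (CPM), and numbered 1877, with a median of 5188 UMIs. There were 137 fibroblast cells (8439 UMIs), 58 endothelial cells (3171 UMIs), 133 megakaryocyte cells (8848 UMIs) and 6414 erythroid cells (28942 UMIs), named from clusters made without any Notch pathway gene. All 14 listed markers of LEPR stromal cells, of endothelial cells and of erythroid cells, and all 12 of megakaryocytes, were highest in the class named for them, which is a description and no independent check, since these lists named the clusters and picked the endothelial cells, and Lepr and Cxcl12 set the gate. The fibroblast class was less uniform. It was highest for 12 of 15 markers of Sca-1+ fibroblasts, but also for 9 of 10 osteoblast, 6 of 6 chondrocyte and 7 of 9 pericyte or smooth muscle markers, and its Ly6a, which encodes Sca-1, was lower than that of the endothelial class (414 against 1372 CPM). The megakaryocyte class was also highest for 9 of 9 myeloid markers, with a summed level of 4387 CPM against 32811 CPM for its own list. RNA from other cells was present in every class, with Hbb-bs, a globin gene, in 92.4% of the LEPR stromal cells. As a reference for transcripts of LEPR stromal cells in other classes, the 12 markers other than Lepr and Cxcl12 stood in erythroid cells at a median of 0.12% of their LEPR stromal level (range 0.06 to 0.14%). The range was far wider in the other classes, at 0 to 14.1% in megakaryocyte, 0 to 40.0% in endothelial and 0.17 to 63.7% in fibroblast cells.

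The 10 genes divided between stroma and endothelium. Notch2, Notch3, Hes1 and Heyl had their highest level in LEPR stromal cells, and Notch1, Notch4, Jag1, Dll1, Dll4 and Hey1 in endothelial cells. All 14001 genes with at least 50 UMIs, a set that held 9 of the 10 (Dll1 had 34 UMIs), were placed alike. Of these, 30.9% were highest in LEPR stromal cells and 21.3% in endothelial cells. The rest were highest in fibroblast, megakaryocyte or erythroid cells, where none of the 10 was highest. A level at least 2-fold over the next class was found for 2 of the 4 in LEPR stromal cells, against 9.64% of those genes. In endothelial cells it was found for 5 of the 6 (Dll1 among them), against 6.93%. In fibroblast, megakaryocyte and erythroid cells it was found for none of the 10, against 3.50%, 4.97% and 5.47%. Heyl, 1 of the 2 in LEPR stromal cells, was at least 1.47-fold higher than in endothelial cells, which had no Heyl UMI, so a 2-fold lead over that class is not shown. With the CPM of single cells averaged the count was 1 in place of 2, and Notch2 was highest in fibroblast cells. The lead over the next class exceeded its counting error for Notch3 and Heyl in LEPR stromal cells and for Notch1, Notch4, Dll4 and Hey1 in endothelial cells. It did not for Notch2, Hes1, Jag1 or Dll1. The endothelial values rest on 213587 UMIs in all, compared with 10749160 for the LEPR stromal cells, and carry the wider intervals.

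**Figure D1:**
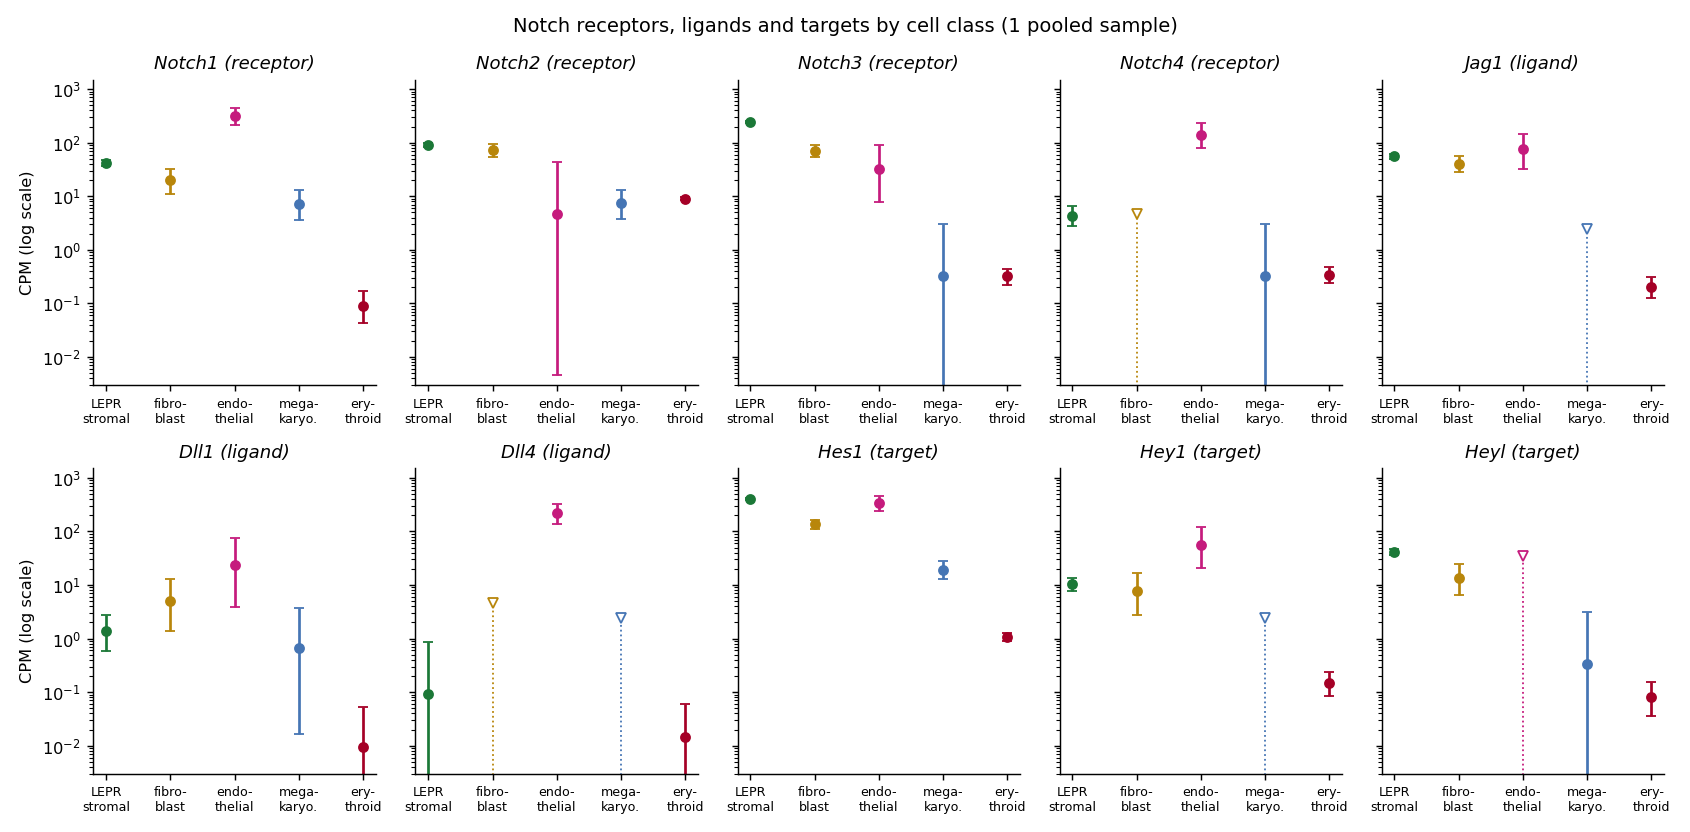
CPM of each of the 10 genes (vertical axis, log scale) in LEPR stromal, fibroblast, endothelial, megakaryocyte and erythroid cells. Points are the levels of summed UMIs, bars their 95% exact Poisson intervals, and open triangles the upper ends of these intervals where no UMI was found. Notch3 and Heyl stand highest in LEPR stromal cells, Notch1, Notch4 and Dll4 in endothelial cells, and Notch2 stands at 8.95 CPM in erythroid cells.

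Notch3 encodes the receptor known from mural cells, which wrap vessels, and is at chr17:32120820-32166852 (minus strand, GRCm38, GENCODE M21). In LEPR stromal cells it stood at 252 CPM in rep1 and 238 CPM in rep2, together 245 CPM (232 to 258), and 55.7% of the cells had a UMI. Fibroblast cells had 70.7 CPM (53.3 to 91.9), lower by 1.79 on the log2 scale (1.41 to 2.21). Endothelial cells had 32.8 CPM, but all 7 of those UMIs came from 1 cell. Megakaryocyte cells had 1 UMI, and erythroid cells stood at 0.32 CPM, which is 0.13% of the LEPR stromal level and within the range of the 12 LEPR stromal markers there.

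Notch1 encodes the receptor through which tip and stalk cells of growing vessels are sorted out, and is at chr2:26457903-26516663 (minus strand). Endothelial cells had 305 CPM in rep1 and 322 in rep2, together 314 CPM (217 to 439), and 29 of the 58 cells had a UMI. LEPR stromal cells had 42.3 CPM (37.0 to 48.2) and a UMI in 16.5% of cells, so that the endothelial level was 7.41-fold higher, or 2.89 on the log2 scale (2.32 to 3.42). The 14 endothelial markers stood in LEPR stromal cells at a median of 0.15% of their endothelial level (range 0 to 8.51%), and Notch1 stood at 13.5%, though these markers had also served to pick the endothelial cells. Fibroblast cells had 19.7 CPM (11.2 to 32.3), megakaryocyte cells 7.25 CPM (3.62 to 12.97) and erythroid cells 0.09 CPM. Each step in that order was larger than its counting error.

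Notch4, a receptor known from endothelium, is at chr17:34564268-34588503 (plus strand). It stood at 143 CPM in rep1 and 138 CPM in rep2 of the endothelial cells, together 140 CPM (78.6 to 232), and 13 cells (22.4%) had a UMI. In LEPR stromal cells it was at 4.37 CPM (2.79 to 6.53), lower by 5.01 on the log2 scale (3.97 to 6.001). That was 3.11% of its endothelial level, within the wide range of the endothelial markers (0 to 8.51%) but above their median of 0.15%. No Notch4 UMI was found in the fibroblast cells, where a count of 0 allows up to 3.82 CPM. Erythroid cells had 0.34 CPM and megakaryocyte cells 1 UMI.

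Notch2, the receptor encoded at chr3:98013527-98150361 (plus strand), was found in both mesenchymal classes. LEPR stromal cells had 92.2 CPM (84.3 to 100.7) and fibroblast cells 72.6 CPM (55.0 to 94.0). The difference, 0.35 on the log2 scale, was within counting error (-0.05 to 0.77). A UMI was found in 31.3% of LEPR stromal and in 43.1% of fibroblast cells, which were deeper. Endothelial cells had 1 Notch2 UMI, that is 4.68 CPM (0.01 to 43.8), which put the LEPR stromal level 4.30 higher on the log2 scale (1.07 to 14.3). Notch2 was also found in hematopoietic cells, at 7.58 CPM (3.85 to 13.4) in megakaryocyte and 8.95 CPM (8.39 to 9.55) in erythroid cells, and neither step from erythroid to megakaryocyte to endothelial cells exceeded counting error. The megakaryocyte level was 8.22% of that in LEPR stromal cells. This was inside the wide range of the 12 LEPR stromal markers in that class (0 to 14.1%), but above their median of 0.46%.

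Promoters of genes with different highest classes are set side by side. The bases upstream of the start of Notch3, highest in LEPR stromal cells, are shown beside those of Dll4 and Notch4, highest in endothelial cells. They are given 5′ to 3′ on the strand of the gene from RefSeq windows of GRCm38.p6, cut where an annotated exon of the gene begins, and capitals mark each GGGCGG (GC box) and each AGGAAG (ETS core) on either strand.
Notch3, chr17:32166891-32167140, minus strand: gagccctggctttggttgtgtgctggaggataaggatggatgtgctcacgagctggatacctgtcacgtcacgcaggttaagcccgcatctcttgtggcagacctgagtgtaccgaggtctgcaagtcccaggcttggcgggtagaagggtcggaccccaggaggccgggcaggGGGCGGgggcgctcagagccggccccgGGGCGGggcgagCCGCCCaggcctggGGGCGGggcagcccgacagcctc
Dll4, chr2:119325534-119325783, plus strand: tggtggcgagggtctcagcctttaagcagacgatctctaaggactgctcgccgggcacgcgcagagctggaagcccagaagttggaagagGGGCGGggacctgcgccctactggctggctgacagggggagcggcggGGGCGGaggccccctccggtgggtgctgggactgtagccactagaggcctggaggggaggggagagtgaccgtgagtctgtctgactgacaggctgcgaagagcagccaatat
Notch4, chr17:34564045-34564267, plus strand: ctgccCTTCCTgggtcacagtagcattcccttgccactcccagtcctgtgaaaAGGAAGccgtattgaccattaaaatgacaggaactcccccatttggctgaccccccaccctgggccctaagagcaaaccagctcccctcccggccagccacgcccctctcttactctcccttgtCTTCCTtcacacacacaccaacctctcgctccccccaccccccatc
The Notch3 stretch held 4 GC boxes and no ETS core, the Dll4 stretch 2 GC boxes and no ETS core, and the Notch4 stretch no GC box and 3 ETS cores, so the promoters of both endothelial genes did not share these letters. Among 32851 RefSeq windows of 250 bases, 32.7% held a GC box and 29.5% an ETS core. Of the 8 windows of the receptors and ligands, 4 held a GC box and 2 an ETS core. Notch1, highest in endothelial cells, and Notch2 each had 5 GC boxes. The core letters bound by RBPJ, TGGGAA, were in 21.6% of all windows. They were in none of the 8 windows of the 4 receptors and 3 ligands, which are too few to read this as a difference. The targets Hes1, Hey1 and Heyl had no window to search. Of the pathway genes described below, only Lfng and Rbpj were searched. The Lfng window held 2 RBPJ cores, and the windows of Rbpj held 2 and 1. The windows say nothing of sites farther away.

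Dll4, the Delta-like ligand of arterial and sprouting vessels, is at chr2:119325784-119335962 (plus strand). It was all but limited to the endothelial cells, which held 90.4% of its 52 UMIs. They had 238 CPM in rep1 and 203 CPM in rep2, together 220 CPM (140 to 329), and 34.5% of them (20 of 58 cells) had a UMI. LEPR stromal cells had 1 UMI in 1877 cells, lower by 11.21 on the log2 scale (7.85 to 21.25). Fibroblast and megakaryocyte cells had none, which allows 3.82 and 1.98 CPM, and the 3 UMIs in erythroid cells came from 1 cell.

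Jag1, a Jagged ligand that Notch2 and other receptors bind, is at chr2:137081456-137116644 (minus strand). It was found in 3 classes, with 74.9 CPM (32.3 to 148) in endothelial, 56.0 CPM (49.9 to 62.7) in LEPR stromal and 40.7 CPM (27.9 to 57.5) in fibroblast cells. The endothelial excess over LEPR stromal cells was 0.42 on the log2 scale (-0.81 to 1.42) and the LEPR stromal excess over fibroblast cells 0.46 (-0.07 to 1.03), so that neither step was larger than counting error. A Jag1 UMI was found in 20.4% of LEPR stromal, 26.3% of fibroblast and 12.1% of endothelial cells. No megakaryocyte cell had one, which put LEPR stromal cells at least 28.3-fold higher, and erythroid cells had 0.21 CPM.

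Dll1, a Delta-like ligand encoded at chr17:15367354-15376872 (minus strand), was scarce, with 34 UMIs in all kept cells. Endothelial cells had 23.4 CPM (3.89 to 74.97) from 4 cells, fibroblast cells 5.09 CPM (1.39 to 13.04) and LEPR stromal cells 1.40 CPM (0.58 to 2.81). No step between neighboring classes in that order exceeded counting error, though the endothelial level was above the LEPR stromal one by 4.07 on the log2 scale (1.21 to 6.27).

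Hes1, which encodes a repressor that many signals besides Notch can induce, is at chr16:30064384-30067796 (plus strand). LEPR stromal cells had 406 CPM in rep1 and 408 CPM in rep2, together 407 CPM (390 to 424), and 65.2% of them had a UMI. Endothelial cells had 337 CPM (236 to 467), and 29.3% had a UMI. The difference of 0.27 on the log2 scale was within counting error (-0.20 to 0.79). Fibroblast cells had 135 CPM (110 to 163), which is 1.59 lower on the log2 scale than LEPR stromal cells (1.31 to 1.89). Megakaryocyte cells had 19.4 CPM and erythroid cells 1.08 CPM, the latter 0.26% of the LEPR stromal level.

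Hey1 and Heyl encode related repressors of the Hey family, and their highest classes differed. Hey1 (chr3:8663359-8667256, minus strand) had 56.2 CPM (20.6 to 122) in endothelial cells, where 8 of 58 cells had a UMI, and 10.4 CPM (7.87 to 13.5) in LEPR stromal cells, a difference of 2.43 on the log2 scale (0.92 to 3.64). Heyl (chr4:123233556-123249875, plus strand) had 41.4 CPM (36.1 to 47.2) in LEPR stromal cells and 13.4 CPM (6.55 to 24.2) in fibroblast cells, which differed by 1.63 (0.74 to 2.68). No Heyl UMI was found in the 58 endothelial cells. A count of 0 there allows up to 28.1 CPM and a share of up to 5.17% of cells with a UMI, so LEPR stromal cells were at least 1.47-fold higher. Hey1 was not found in megakaryocyte cells, and erythroid cells had 0.15 CPM of Hey1 and 0.08 CPM of Heyl.

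The share of cells with a UMI depends on depth, and erythroid cells were the deepest class. When every cell was thinned to 1000 UMIs of rep1, Hes1 was found in 30.5% of LEPR stromal and 26.7% of endothelial cells, and Notch3 in 21.4% of LEPR stromal cells. Notch1 was found in 31.1% of endothelial and 3.71% of LEPR stromal cells, and Dll4 in 20.0% and 0%. Notch2 went from 18.7% to 1.33% of erythroid cells, compared with 8.91% of thinned LEPR stromal and 7.35% of thinned fibroblast cells. Thinning left out 127 LEPR stromal, 1 fibroblast, 13 endothelial, 18 megakaryocyte and 105 erythroid cells that were shallower. In LEPR stromal cells with a UMI the median was 3 UMIs for Hes1 and 2 for Notch3, and 1 for each of the other 8 genes, so many cells that hold transcripts will show no UMI.

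**Figure D2:**
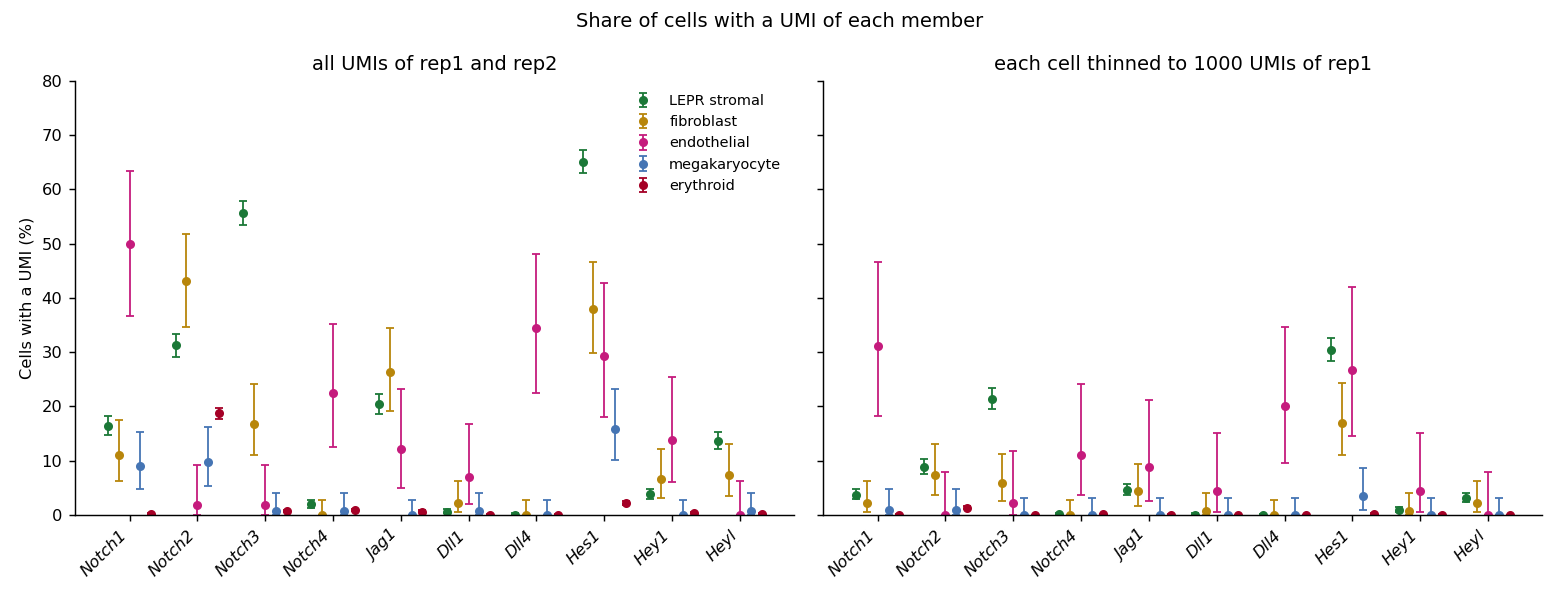
Percent of cells with at least 1 UMI of each gene (vertical axis) in the 5 cell classes, at full depth (left) and with each cell thinned to 1000 UMIs (right), with 95% Clopper-Pearson intervals. The erythroid share of Notch2 falls from 18.7% to 1.33%, while Notch1 and Dll4 stay highest in endothelial cells and Notch3 in LEPR stromal cells.

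Within the LEPR stromal cells, the members were compared between cells split on genes outside the pathway. Hes1 differed most in the split by the summed level of 7 immediate-early genes (Fos, Fosb, Jun, Junb, Egr1, Ier2 and Atf3), which cells switch on soon after a stimulus. In the 469 cells of the highest 25%, Hes1 stood at 754 CPM (708 to 801) and was found in 85.7% of cells. In the other 1408 cells it stood at 290 CPM (273 to 307) and was found in 58.3%, which is 1.38 lower on the log2 scale (1.26 to 1.502). Depth was alike in both (median 5265 and 5164 UMIs), and within each quartile of depth the difference lay between 1.17 and 1.55. None of the other 9 genes differed beyond counting error along this split, with Heyl, the other target of the stroma, at 38.6 and 42.3 CPM and Notch3 at 235 and 248 CPM.

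The 996 LEPR stromal cells with a UMI of Bmp4 or Chl1, genes by which osteogenic-primed stromal cells can be told apart, had more Notch3 than the other 881 cells, at 268 and 209 CPM, a difference of 0.36 on the log2 scale (0.19 to 0.53). Jag1 was also higher there, at 62.9 and 45.5 CPM (0.47, interval 0.11 to 0.83). Heyl was lower, at 36.7 and 48.6 CPM (-0.40, interval -0.80 to -0.01), while Hes1 (403 and 413 CPM), Notch1 and Notch2 did not differ beyond counting error. The cells with Bmp4 or Chl1 were deeper (median 5968 and 4388 UMIs), and some members also differed with depth. From the deepest to the shallowest quartile of cells Hes1 went from 320 to 512 CPM and Heyl from 51.3 to 23.5 CPM, while Notch3 (233 and 223 CPM) differed by less than its counting error. The part of depth in the Bmp4 or Chl1 split was not tested. In the highest 10% of cells by 6 interferon-response genes, no member differed from the other cells beyond counting error, with Jag1 at 38.8 and 58.0 CPM (-0.58 on the log2 scale, interval -1.29 to 0.05).

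**Figure D3:**
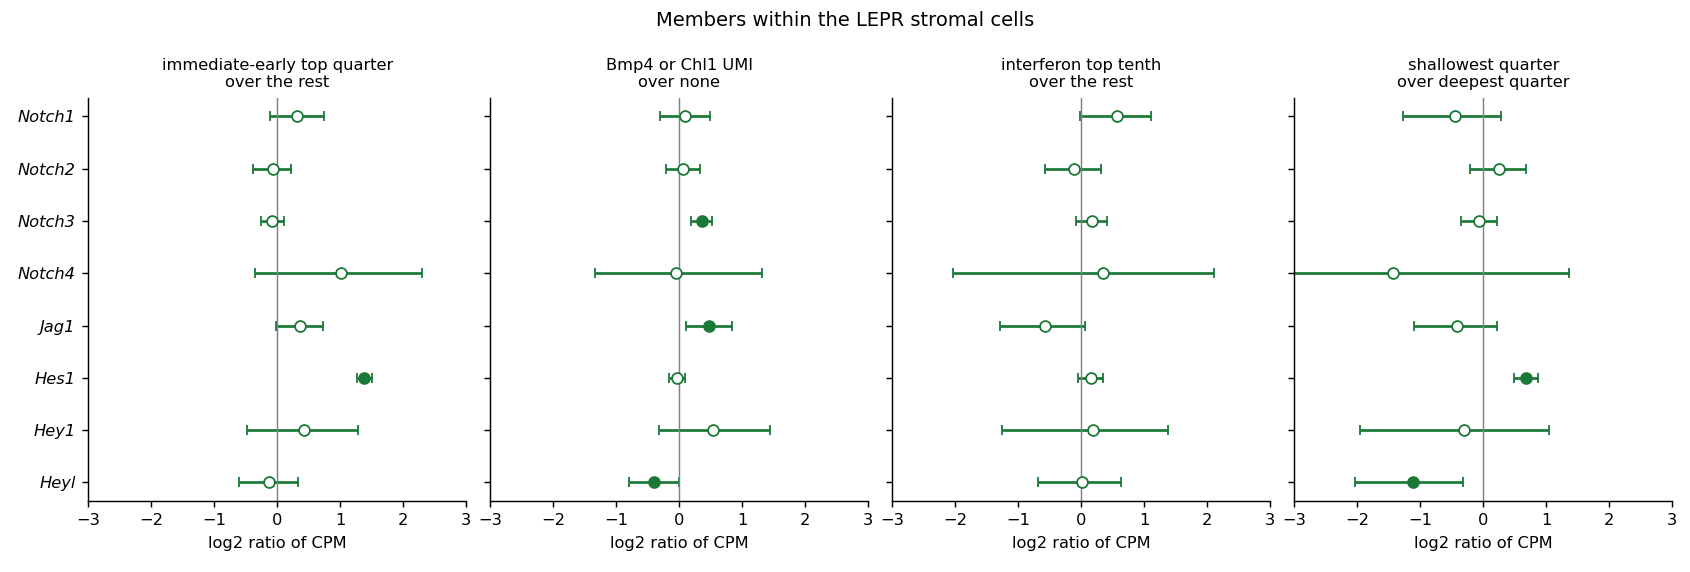
Log2 ratio of CPM (horizontal axis) of 8 members between subsets of the LEPR stromal cells, with 95% counting intervals. Filled points have an interval that leaves out 0. Hes1 at 1.38 stands apart in the split by immediate-early genes, Notch3 and Jag1 lie above 0 in the split by Bmp4 or Chl1, and Hes1 and Heyl move in opposite directions with depth. Dll1 and Dll4 had too few UMIs to plot.

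In the fibroblast class, Notch3 was carried by few cells. The 16 cells with at least 2 of 9 pericyte or smooth muscle markers, among them Rgs5 at 2687 CPM and Acta2 at 1288 CPM, had 328 CPM of Notch3 (229 to 455), and the other 121 cells had 29.5 CPM (18.0 to 45.6). The difference was 3.47 on the log2 scale (2.64 to 4.34). Heyl followed it, at 55.4 CPM (20.3 to 121) and 6.65 CPM, a difference of 3.06 (1.04 to 5.21), whereas Hes1 went the other way, at 46.2 and 149 CPM, lower in the 16 cells by 1.69 (0.42 to 3.35). Set beside LEPR stromal cells, the 16 cells differed in Notch3 by 0.42 on the log2 scale, within counting error (-0.10 to 0.90), but had less Hes1, lower by 3.14 (1.92 to 4.76). They were not pure, since 3 of the 16 had a UMI of the osteoblast gene Bglap and Prg4 reached 16334 CPM from 3 cells. In 32 cells with at least 2 late osteoblast genes, Hes1 was at 99.9 CPM (62.2 to 152). The last 89 cells had 172 CPM (136 to 214), which was 0.79 higher on the log2 scale (0.08 to 1.55). Notch1, Notch2, Notch3 and Jag1 did not differ beyond counting error.

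Most Notch2 transcripts of the sample were in erythroid cells, the largest and deepest class, which held 60.1% of its UMIs. Its level there was 9.71% of that in LEPR stromal cells, while none of the 12 LEPR stromal markers outside the gate exceeded 0.14%. Notch3 alone of the 10 genes lay within the range of those markers, at 0.13%. Heyl, Notch1, Hes1 and Jag1 stood just above it, between 0.20 and 0.37%, below the 0.51% of Lepr, a gene of the gate. Notch4 (7.77%) and Hey1 (1.42%) stood higher, at 0.34 and 0.15 CPM, as did Dll1 and Dll4 on 15 UMIs or fewer in LEPR stromal cells. These 4 genes were highest in endothelial cells. Set against that level, all lay within the range of the 14 endothelial markers in erythroid cells (0.003 to 4.89%, median 0.02%). Notch4 (0.24%), Hey1 (0.26%) and Dll1 (0.04%) stood above that median, and Dll4 (0.007%) below it. The range is wide, so lying inside it does not place these levels. Removing the barcodes called as doublets left Notch2 in erythroid cells at 8.90 CPM.

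Erythroid cells were ordered by the share of globin transcripts among their UMIs, which grows as they mature. Notch2 stood at 15.6 CPM (14.1 to 17.3) where globin was under 0.5% of UMIs, at 11.9 CPM at 0.5 to 1%, at 8.07 CPM at 1 to 2.5%, at 4.81 CPM at 2.5 to 6% and at 4.42 CPM (3.19 to 5.97) at 6% or more. Each bin was at or below the one before it, and the first was 3.53-fold above the last, 1.82 on the log2 scale (1.36 to 2.31). Hes1 went from 1.99 to 0.73 CPM, a difference of 1.45 (0.30 to 2.84), and Notch4 from 0.60 to 0.10 CPM, within counting error. Other measures moved along with the bins. The median depth went from 10617 to 33824 UMIs, and Gm26917, a leading gene of some clusters of low depth, from 3351 to 397 CPM. Without the 3 erythroid clusters that had Gm26917 or Lars2 among their 10 leading genes, which held 2440 cells, Notch2 still went from 12.4 to 4.28 CPM, a difference of 1.53 (1.05 to 2.05), whereas that of Hes1 came within counting error (1.04, interval -0.21 to 2.53). The part of depth was not tested.

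**Figure D4:**
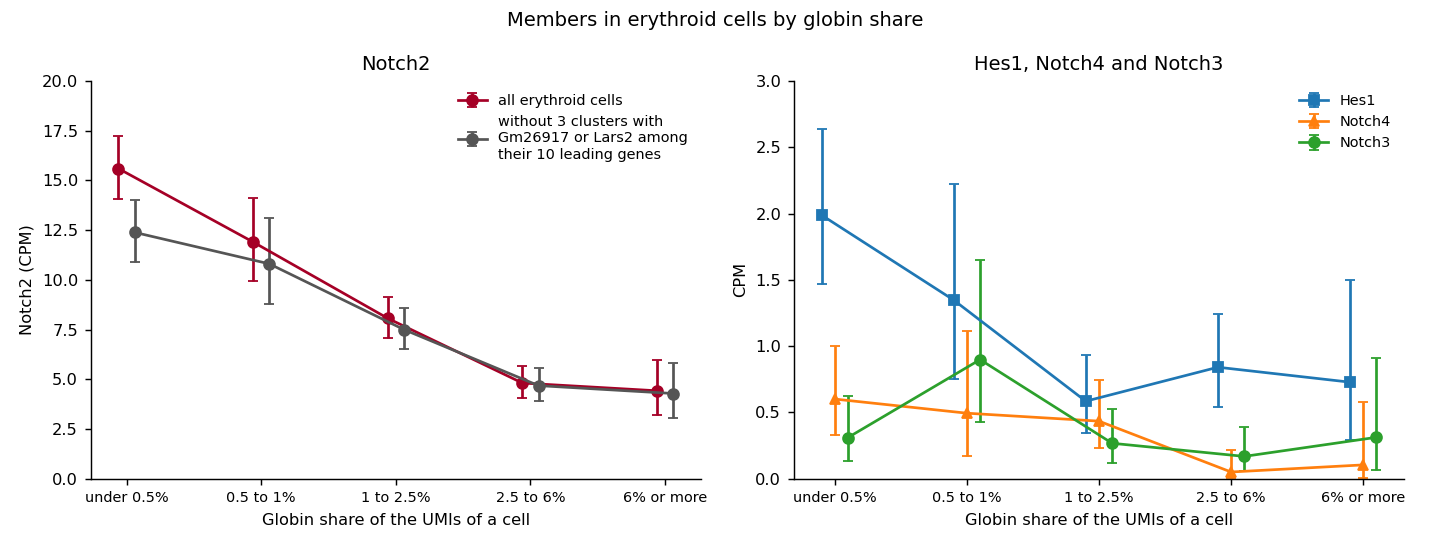
Level in erythroid cells (CPM) against the globin share of a cell's UMIs, in 5 bins, with 95% Poisson intervals. Notch2 (left) goes from 15.6 to 4.42 CPM in all erythroid cells and from 12.4 to 4.28 CPM without the 3 clusters that had Gm26917 or Lars2 among their 10 leading genes. Hes1, Notch4 and Notch3 (right) stay below 2 CPM.

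Most cells showed UMIs of 1 Notch receptor or none. Of the LEPR stromal cells 44.0% had UMIs of 1 Notch receptor, 24.2% of 2, 4.10% of 3 and 0.16% of all 4, and 27.5% had none. Endothelial cells had none in 43.1%, 1 in 37.9% and 2 in 19.0%. Pairs were set beside the number that the separate shares would give within quartiles of depth, as a description only. In LEPR stromal cells Notch2 and Notch3 were together in 346 cells (351 from the shares), Notch3 and Jag1 in 241 (237), Notch3 and Hes1 in 728 (708) and Notch3 and Heyl in 187 (163). In endothelial cells Notch1 was found in 15 of the 17 cells with Hes1 (9.7 from the shares) and in 11 of the 20 cells with Dll4 (12.2).

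The other pathway genes were taken from a list of 56, of which 45 had at least 50 UMIs. Of these, 20 were highest in LEPR stromal, 18 in endothelial, 3 in erythroid, 2 in fibroblast and 2 in megakaryocyte cells. Of all genes, 30.9% were highest in LEPR stromal and 21.3% in endothelial cells, and the rest in the other classes. Among the other ligands, Jag2 was at 253 CPM (167 to 368) in endothelial cells, where 46.6% of cells showed it, and at 0.37 CPM in LEPR stromal cells. Dlk1 and Dlk2, which encode related proteins, had too few UMIs to place. Pofut1, which adds the fucose that Fringe enzymes extend, was at 35.8 and 23.4 CPM in LEPR stromal and endothelial cells. Fringe enzymes, which add sugars to Notch and so tune its choice of ligand, were divided. Lfng was at 56.0 CPM (49.9 to 62.7) in LEPR stromal and 9.36 CPM (0.24 to 52.2) in endothelial cells, and Mfng at 46.8 CPM (15.2 to 109) in endothelial cells with no UMI in LEPR stromal cells, where a count of 0 allows 0.56 CPM.

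The machinery that cuts receptors was present in both. Of its 10 genes, 5 were highest in LEPR stromal and 5 in endothelial cells, beside 30.9% and 21.3% of all genes, and some of these leads were within counting error. Adam10, which makes the first cut after a ligand binds, was at 74.7 CPM (67.6 to 82.4) in LEPR stromal and 206 CPM (129 to 312) in endothelial cells, and the gamma-secretase subunits Psenen (99.3 and 169 CPM) and Ncstn (76.2 and 37.5 CPM) were found in both. In the nuclear complex, Rbpj, which Notch needs to bind DNA, was at 188 CPM (176 to 200) in LEPR stromal and 56.2 CPM (20.6 to 122) in endothelial cells, and the co-activator gene Crebbp at 130 and 103 CPM. Snw1, which encodes a partner of RBPJ, stood at 82.2 and 79.6 CPM.

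None of the 8 co-repressor genes was highest in LEPR stromal cells and 6 were highest in endothelial cells, beside 30.9% and 21.3% of all genes. Among the 6 was Spen, at 84.3 CPM (38.5 to 160.0) in endothelial cells, an interval that holds its LEPR stromal level of 74.4 CPM. Ctbp1 (78.3 and 89.0 CPM in LEPR stromal and endothelial cells) and Hdac1 (77.1 and 70.2 CPM) were highest in erythroid cells, at 152 and 105 CPM. Of 11 genes of endocytosis and turnover with enough UMIs, 7 were highest in LEPR stromal cells, beside 30.9% of all genes. Among them were the ubiquitin ligase genes Itch (119 CPM, and 93.6 CPM, 44.9 to 172, in endothelial cells) and Mib1, which ligand-bearing cells need (68.0 CPM, and 63.7 CPM, 47.3 to 83.9, in fibroblast cells), and neither level lies outside the interval of the next class. Numb, which encodes an inhibitor of Notch, was at 24.4 CPM (20.4 to 28.9) in LEPR stromal and 70.2 CPM (29.3 to 141) in endothelial cells. Most of the other genes listed as targets were scarce, and whether Notch induces them in these cells was not tested. Only Hes6 and Nrarp of 7 had enough UMIs, with Nrarp, a target that feeds back on Notch, at 28.1 CPM (5.79 to 82.1) in endothelial and 1.02 CPM in LEPR stromal cells, and Hes6 at 9.36 and 17.6 CPM. Hes6 was highest in megakaryocyte cells, at 41.2 CPM (31.6 to 52.7). Hes7 was at 1.02 CPM in LEPR stromal cells.

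**Figure D5:**
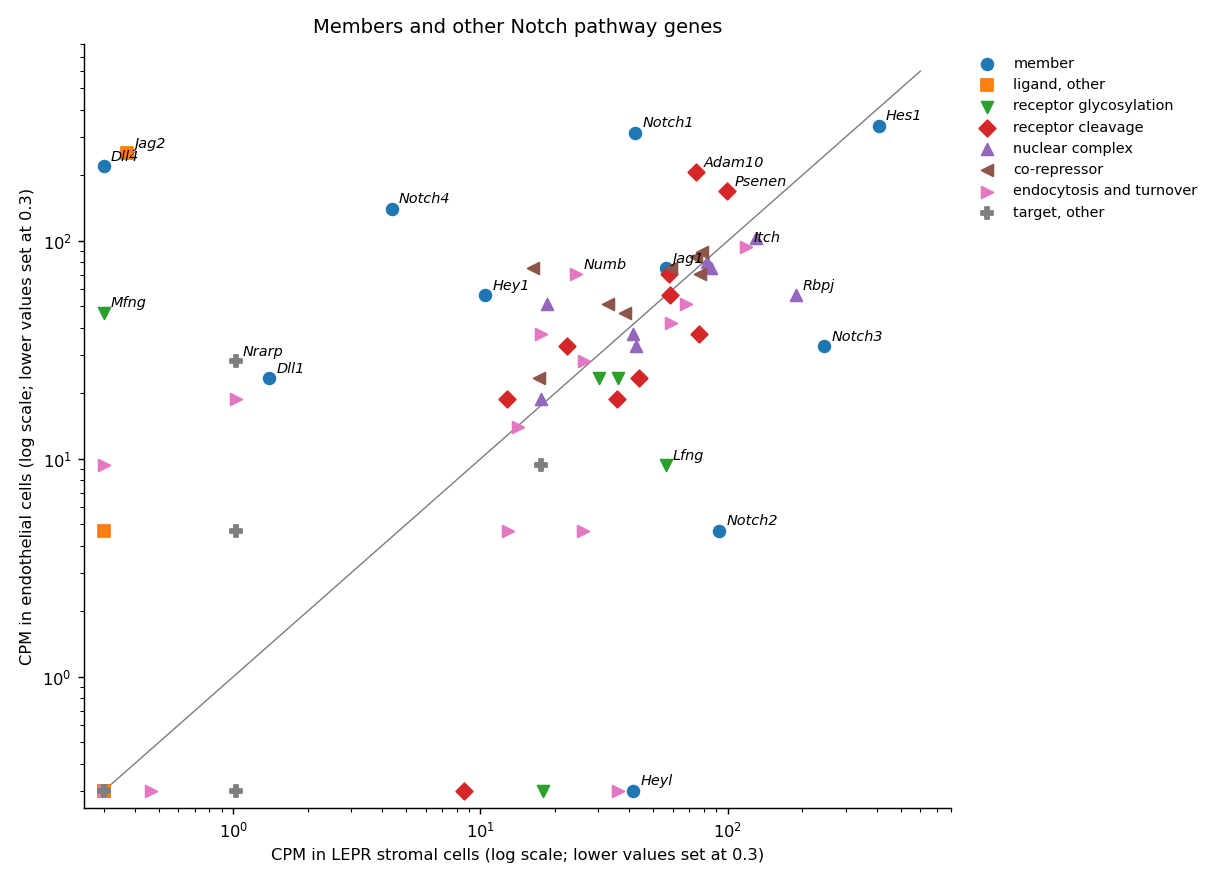
CPM in endothelial cells against CPM in LEPR stromal cells (both log scales, with values under 0.3 drawn at 0.3) for the 10 members and 56 other genes of the pathway, with a line of equal level. Dll4, Jag2, Notch4, Mfng and Notch1 lie on the endothelial side, Notch3, Notch2, Heyl, Lfng and Rbpj on the LEPR stromal side, and Hes1 and Jag1 near the line.

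Genes whose pattern was most like that of a member were found over 17 groups of cells, the clusters with the mixed cluster taken as its fibroblast and its endothelial cells, by the Pearson correlation of log2 CPM. All groups came from the same sample, and the values are a description. Notch3 was most like Tead1, Vstm4 and Ghr (r from 0.995 to 0.997), and Heyl like Tmem30b, Ggt7 and Hykk (0.997 to 0.998). Notch4 was most like Emcn, itself 1 of the endothelial markers, B3gnt3 and Rapgef5 (0.994 to 0.997), Notch1 like Adam15, Plcg1 and B4galt6 (0.987 to 0.989), and Hey1 like Cttnbp2nl, Kctd12b and Sema6b (0.993 to 0.995). Jag1 was most like Fgfr3, Lama4 and Cyp2j6 (0.996 to 0.997), Hes1 like Apbb2 and Map4k4 (both 0.992), and Notch2 like Zfp395, Ptpn13 and Zfp267 (0.962 to 0.970). Dll1 and Dll4 had too few UMIs for this comparison.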

How the data were processed

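UMI counts per gene and barcode were deposited for 2 labelled replicates (rep1 and rep2) of 1 pooled sample. The authors made these counts with Cell Ranger on mm10 (the version differs between the methods and the file header), and named R 4.0.3 and Seurat 4.0 for their own analysis. The rep1 counts held 116827845 and rep2 120556381 UMIs. UMI totals of shared barcodes were near identical (Pearson r of log10 totals 0.999858), so rep1 and rep2 were summed per barcode and counted as 1 sample, and the spread between them was not taken as biological error.

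Barcodes with at least 200 genes and at most 20% mitochondrial UMIs were kept. Clusters were made in R 4.3.3 with Seurat 5.3.0 and sctransform 0.4.2 (3000 variable genes, 30 components, resolution 0.8), with 66 Notch pathway genes left out. Clusters were named from marker lists. Endothelial cells were cells of the stromal clusters outside the LEPR gate with at least 4 of 14 endothelial markers and more of these than of fibroblast markers, a rule set after the clusters were seen. Scanpy 1.11.5 called 1.94% of barcodes as doublets, which were kept in the values above. The members and lists were chosen with earlier results of these data known.

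Levels are UMIs of a gene over all UMIs of a class, as CPM. Intervals at 95% are exact Poisson for levels, conditional binomial for ratios and Clopper-Pearson for shares. For levels and ratios they are on the mean of rep1 and rep2. They cover counting error only. What a count of 0 allows was given in the text as a limit of 3 counts, which is below the upper end of the 95% interval. Counts were simulated for endothelial against LEPR stromal cells (11053 genes, 200 of them changed 4-fold). Of the intervals, 97.7% held the true value. They left out 0 in the true direction for 81.1% of raised and 22.3% of lowered genes. The counts were drawn by the counting model that the intervals assume, so this coverage followed from the design. UMIs clumped in single cells were not simulated. The genes named were the 10 members, the 2 genes of each pathway list with the highest CPM in LEPR stromal and in endothelial cells, and the 3 genes most like each member with at least 100 UMIs, after 10 CPM was added. A gene among those most like Hes1 and a comparison of LEPR stromal clusters are not reported here. Alternatives covered filters, doublets, rep1 or rep2 alone, gates, resolution, averaging and thinning.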

Additional observations from a re-analysis of the deposited data

How the results depend on the processing

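Of 156 recomputed values, 154 were labelled as unchanged. They were levels of members in their highest class, judged by their interval, and counts of members highest in LEPR stromal or endothelial cells, judged by a fold limit. The exceptions were both for Hes1 CPM in LEPR stromal cells, at 430.4 CPM with the LEPR stromal clusters in place of the gate and 440.1 CPM when the CPM of single cells was averaged. With that averaging, 1 member in place of 2 was at least 2-fold higher in LEPR stromal cells than in the next class, and the order of Notch2 in LEPR stromal and fibroblast cells turned, at 96.0 (Notch2 CPM in LEPR stromal cells) and 97.5 (Notch2 CPM in fibroblast cells), and Notch2 CPM in erythroid cells was 13.7 in place of 8.95. The other 9 members kept their highest class in all 13 alternatives. The excess of Hes1 in LEPR stromal cells high in immediate-early genes was 1.13 on the log2 scale when cells were split at the median, and 1.55, 1.503 and 1.17 in the second to deepest quartiles of depth, compared with 1.38. Of 520 other levels 29 moved, and of 100 thinned shares 74, by construction, since thinning removes UMIs. All 113 recomputed ratios of endothelial over LEPR stromal levels moved by less than their interval. Leaving out the endothelial cells of the LEPR stromal cluster, the mural-marker cells, or the clusters with Gm26917 or Lars2 among their leading genes, splitting by depth, and leaving the gate genes out of the marker reference, were chosen after seeing the data. For the filters and doublets, cells were removed from the classes without clustering again. No paired analysis was possible because there is 1 group of 1 sample. The 58 endothelial cells limit every endothelial value, and lowered genes were seldom detected there on simulated counts.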
